A study of Mus musculus with 8 samples.

Results

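The NMDA receptor subunit genes of the mouse, Grin1, Grin2a, Grin2b, Grin2c, Grin2d, Grin3a and Grin3b, were examined in whole-transcriptome sequencing of the hippocampus. They were chosen as the entries whose symbol is exactly 1 of these names, which gave 7 of the 24078 entries of the count table, each present once. Libraries came from 4 mice labelled homozygous (replicates 15 to 18) and 4 labelled wild-type (replicates 7 to 10). All 8 samples carry the strain name Wfs1tm1Koks, a targeted mutation of Wfs1, the gene of the endoplasmic reticulum protein wolframin, and no age, sex or litter is given in the sources used here. The comparison of homozygous with wild-type mice asks how hippocampal transcripts differ when Wfs1 is mutated.

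NMDA receptors are glutamate-gated cation channels of excitatory synapses that open when glutamate and a co-agonist, glycine or D-serine, are bound and depolarisation lifts the magnesium block. Each channel is a tetramer that needs GluN1, the glycine-binding subunit encoded by Grin1, and combines it with glutamate-binding GluN2 subunits (Grin2a to Grin2d) or glycine-binding GluN3 subunits (Grin3a, Grin3b). In the adult hippocampus GluN2A and GluN2B are known as the main GluN2 subunits of pyramidal cells. Receptor calcium entry is known as a trigger of synaptic plasticity, and the subunit make-up sets the kinetics and the magnesium block of the channel.

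The family is shown by the coding sequence of a conserved stretch in 4 of its genes, with at least 1 from each of the GluN1, GluN2 and GluN3 groups, at the end of the third membrane-spanning segment, which lines the channel gate. Each line gives 45 bases of coding sequence from GENCODE M21 transcripts (mm10), 5′ to 3′ on the coding strand, and the capitals mark the 21 bases that code for a stretch of 7 amino acids identical in these 4 subunits.
Grin1: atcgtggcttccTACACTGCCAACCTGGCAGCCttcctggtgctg
Grin2c: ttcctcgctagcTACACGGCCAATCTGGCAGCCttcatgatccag
Grin3a: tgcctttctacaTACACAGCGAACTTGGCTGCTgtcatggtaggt
Grin3b: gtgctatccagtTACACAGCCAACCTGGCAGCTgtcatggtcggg
Within the 21 capital bases, the 4 genes differed from each other at 2 to 6 positions, all of them without changing the amino acid. Over whole transcripts of all 7 genes, none of the 21 pairs shared an identical run of 35 bases, the length of the shorter read of a pair. A read of that length could thus match both genes exactly in 0 pairs. Matches that allow for mismatched bases were not examined.

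All 7 genes passed the filter on low counts. At an adjusted p under 0.05 in edgeR's quasi-likelihood test (Benjamini-Hochberg over 20478 genes), 4 of 7 were lower in homozygous mice (Grin1, Grin2a, Grin2b and Grin2c), 0 were higher, and 3 passed in neither direction (Grin2d, Grin3a and Grin3b). Over all genes tested, 20.4% (4168) were lower and 20.7% (4241) were higher. With library totals in place of TMM scaling the median of all genes moved by 0.20 log2 units and the split was 2412 lower and 6645 higher, while 3 of 7 subunit genes (Grin1, Grin2b and Grin2c) were lower and none changed direction. The median log2 fold change (homozygous minus wild-type) was -0.53 over the 7 genes and 0.05 over all genes. In 4 of 7 genes (Grin1, Grin2b, Grin2c and Grin3a) every homozygous library was below every wild-type library, as it was for 18.8% of all genes. In tissue RNA, fewer cells of a type and less RNA per cell cannot be told apart.

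Library totals ran from 3250949 to 6747411 counts, and values are given as CPM, counts scaled to library size with TMM (trimmed mean of M-values) factors. Means stand with their SD over the 4 libraries of a genotype (mean ± SD). Across genes, which are not independent, log2 CPM of libraries of different genotype correlated at a Spearman rho of 0.872 to 0.905, against 0.965 to 0.986 for pairs of wild-type and 0.935 to 0.965 for pairs of homozygous libraries. For Wfs1 itself the 4 wild-type libraries had 44.6 to 61.3 CPM and the 4 homozygous libraries 12 to 17.7 CPM (log2 fold change -1.81, adjusted p 2.62e-05, edgeR). The labels name separate animals, so the p-values weigh genotype against the spread between animals, and handling that went along with genotype cannot be told apart from it.

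**Figure D1:**
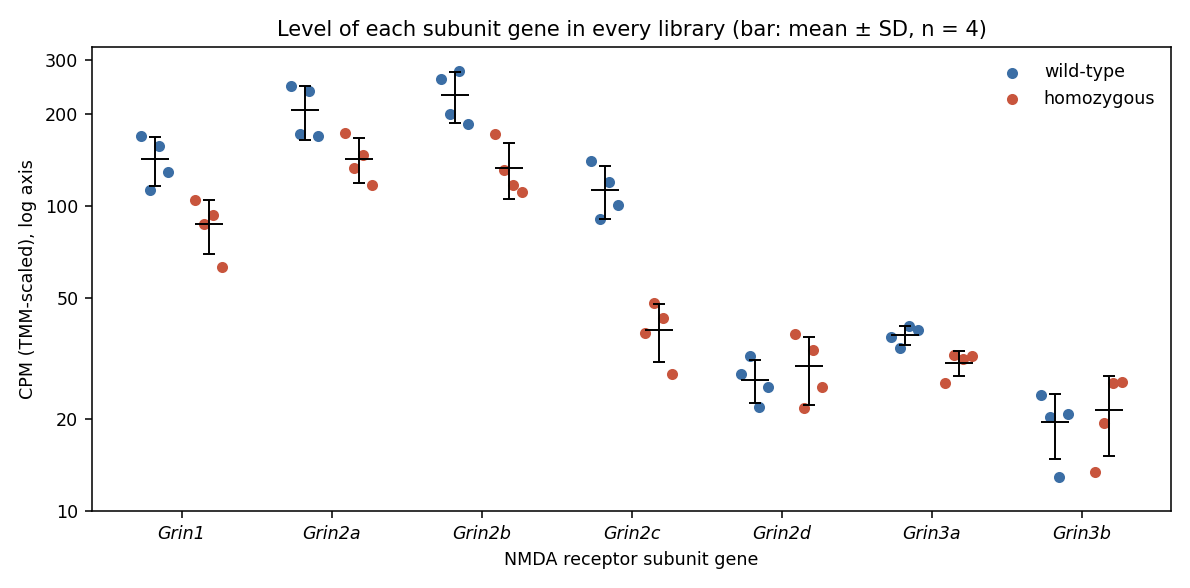
CPM of the 7 NMDA receptor subunit genes in each library (points, log axis), with the mean and SD over 4 libraries of each genotype (bars). Homozygous and wild-type points do not overlap for Grin1, Grin2b, Grin2c and Grin3a, and Grin2c is the farthest apart, at 28.2 to 47.9 against 90.2 to 140.3 CPM.

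Grin1, which encodes the GluN1 subunit that every NMDA receptor contains, lies on chromosome 2, positions 25291181 to 25319187 of mm10, minus strand. Wild-type replicates 7 to 10 had 169, 113, 157 and 129 CPM of Grin1, and homozygous replicates 15 to 18 had 104, 87.1, 93.1 and 62.8 CPM. The highest homozygous library was below the lowest wild-type library. The mean was 142 ± 25.6 CPM in wild-type and 86.9 ± 17.6 CPM in homozygous mice, 38.9% lower, and the log2 fold change of -0.71 (SE 0.18) had an edgeR adjusted p of 0.00898. These values rest on 2716 wild-type and 1427 homozygous counts.

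An antisense transcript, Grin1os (E130003G02Rik in the table), shares 1307 bases with Grin1 exons, 13.5% of their length, and whether the counting used strand is not stated. It differed the other way, with 7.34 ± 0.98 CPM in wild-type and 12.5 ± 0.85 CPM in homozygous mice (log2 fold change 0.76, SE 0.17, edgeR adjusted p 0.00433). Without strand, reads in the shared bases cannot be told apart between the genes.

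The GluN2 genes of the principal hippocampal receptors were lower as well. Grin2b, which encodes the GluN2B subunit that binds the kinase CaMKII and dominates early in life, lies on chromosome 6, positions 135713233 to 136173511, minus strand. Wild-type replicates 7 to 10 showed 259.7, 200.4, 276 and 185 CPM of Grin2b, and homozygous replicates 15 to 18 showed 172, 131, 117 and 111 CPM. No homozygous library reached the lowest wild-type one. Means were 230.3 ± 44.1 and 133 ± 27.4 CPM, and the log2 fold change was -0.79 (SE 0.18, edgeR adjusted p 0.00563).

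Grin2a, on chromosome 16, positions 9567898 to 9995560, minus strand, encodes GluN2A, the subunit that joins hippocampal synapses as they mature and gives receptors with faster decay. Wild-type replicates 7 to 10 had 246, 171, 237 and 169.6 CPM, and homozygous replicates 15 to 18 had 174, 133, 146 and 117 CPM. The groups overlapped through homozygous replicate 15, which stood above wild-type replicates 8 and 10. Means were 206 ± 41.3 and 143 ± 23.9 CPM, and the log2 fold change was -0.53 (SE 0.17, edgeR adjusted p 0.03). This call was lost without wild-type replicate 7 or 9 or homozygous replicate 16 or 18 (adjusted p 0.1, 0.0937, 0.0569 and 0.0680), and with library totals in place of TMM (log2 fold change -0.32, adjusted p 0.165).

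Grin2c had the lowest log2 fold change of the 7 genes. It lies on chromosome 11, positions 115249169 to 115267243, minus strand, and encodes GluN2C, a subunit with weak magnesium block known mainly from cerebellar granule cells and, in the forebrain, from astrocytes and some interneurons. Its level was 140.3, 90.2, 119 and 101 CPM for wild-type replicates 7 to 10, and 38.3, 47.9, 42.8 and 28.2 CPM for homozygous replicates 15 to 18. The highest homozygous library was thus well under the lowest wild-type library. The homozygous mean of 39.3 ± 8.39 CPM was 65.1% below the wild-type mean of 113 ± 22 CPM, and the log2 fold change of -1.52 (SE 0.19) had an edgeR adjusted p of 0.000193. The call held in 16 of 16 alternatives, with log2 fold changes from -1.63 to -1.29.

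The 250 bases before the start of Grin2c are shown because this gene had the lowest fold change and its promoter is GC-rich. They lie at chr11:115267244-115267493 (GRCm38.p6, minus strand), come from RefSeq, run 5′ to 3′ towards the gene, and carry in capitals each match to the GC box GGGCGG, searched on both strands.
Grin2c promoter: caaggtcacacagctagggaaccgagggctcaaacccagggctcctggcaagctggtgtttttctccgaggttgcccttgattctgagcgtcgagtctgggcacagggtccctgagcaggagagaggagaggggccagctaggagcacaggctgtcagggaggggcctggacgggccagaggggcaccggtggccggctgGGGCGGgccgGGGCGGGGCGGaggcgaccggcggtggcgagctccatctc
The window held 3 matches, 2 of which share a base, and a GC content of 68.8%. At least 3 matches were found in 8.5% of 32851 RefSeq promoter windows of this length, and at least 1 in 32.7%. The other members with an entry in the promoter table, Grin1, Grin2d and Grin3b, had 0 matches. The 3 windows of these genes had a GC content of 58.8%, 54.4% and 46%, against a median of 52.4% over all windows. Because the Grin2c window was picked as GC-rich and the motif holds only G and C, these shares are not evidence of enrichment. Windows of like GC content were not compared. A match describes the letters only, and the data hold no measurement of promoter activity.

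Grin2d, the gene of GluN2D, a subunit with very slow decay known in the hippocampus from interneurons, passed in neither direction. It lies on chromosome 7, positions 45831883 to 45878378, minus strand. Wild-type replicates 7 to 10 had 28.1, 32.2, 22 and 25.5 CPM, and homozygous replicates 15 to 18 had 38.15, 21.8, 33.8 and 25.5 CPM. The groups overlapped, with homozygous replicates both above and below the wild-type range. Means were 26.9 ± 4.32 and 29.8 ± 7.49 CPM, and the log2 fold change of 0.17 had a 95% interval of -0.20 to 0.54 (edgeR adjusted p 0.495). An antisense model, Gm45441, shares 643 bases (9.7%) of the Grin2d exons and was not analysed here.

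The GluN3 genes encode subunits that lower the calcium permeability and magnesium block of the channel. Grin3a, on chromosome 4, positions 49661611 to 49845744, minus strand, was at 37.1, 34.25, 40.3 and 39.3 CPM for wild-type replicates 7 to 10 and at 26.3, 32.5, 31.5 and 32.3 CPM for homozygous replicates 15 to 18. All homozygous values were below all wild-type values, and the spread within a genotype was the lowest of the 7 genes, with a coefficient of variation of 7.11% over wild-type and 9.55% over homozygous libraries. Means were 37.7 ± 2.68 and 30.7 ± 2.93 CPM. The log2 fold change of -0.31 (95% interval -0.55 to -0.07) did not pass the threshold, at an edgeR adjusted p of 0.0611. It passed in 3 of 16 alternatives, without wild-type replicate 8 (adjusted p 0.0411), in limma-voom (0.0253) and with the counts-per-kilobase trend removed (0.0143).

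Grin3b, on chromosome 10, positions 79970715 to 79977190, plus strand, encodes GluN3B, which is known mainly from motor neurons. Wild-type replicates 7 to 10 had 24.0, 20.3, 13.0 and 20.8 CPM and homozygous replicates 15 to 18 had 13.4, 19.5, 26.3 and 26.4 CPM, and the groups overlapped. The log2 fold change was 0.12 (95% interval -0.36 to 0.60, edgeR adjusted p 0.705). The neighbouring Tmem259 (ORF61 in the table), on the opposite strand, shares 1059 bases with Grin3b, 32.1% of its exons. That neighbour was at 36.6 and 21.5 CPM (log2 fold change -0.77, edgeR adjusted p 0.0016), and reads in the shared bases cannot be told apart without strand, so the level of Grin3b is uncertain.

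The fold changes of the table ran with gene abundance, so each gene was also read beside genes of like abundance. Grin1, Grin2a and Grin2b were in the most abundant of 10 equal groups of genes by mean CPM (deciles), in which the median log2 fold change was -0.46, 55.1% of genes were lower and 12.7% were higher. Grin2c was in the next decile, with a median of -0.21 and 34.8% lower. The deciles of Grin3a, Grin2d and Grin3b had medians of -0.05, 0.08 and 0.11. Set against the median of their decile, the log2 fold changes of Grin1, Grin2a and Grin2b were -0.25, -0.07 and -0.33, that of Grin2c was -1.31 and that of Grin3a was -0.26. Grin2d (0.09) and Grin3b (0.01) were close to the median of theirs.

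When a loess curve of each library's log2 values on gene abundance was removed, 1 of 7 genes, Grin2c, remained past the threshold (log2 fold change -1.35, adjusted p 0.0004, edgeR). Grin1 then stood at -0.39 (adjusted p 0.0922), Grin2b at -0.34 (0.131) and Grin2a at -0.09 (0.693). With the trend on counts per kilobase of exon taken out in its place, 4 of 7 genes were past the threshold in edgeR. These were Grin1 (-0.55, adjusted p 0.0340), Grin2b (-0.86, 0.0052), Grin2c (-1.29, 0.0005) and Grin3a (-0.48, 0.0143). Grin2a was not among them (-0.46, 0.0590). The part of the trend in the lower counts of Grin1, Grin2a and Grin2b was not tested beyond these fits.

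**Figure D2:**
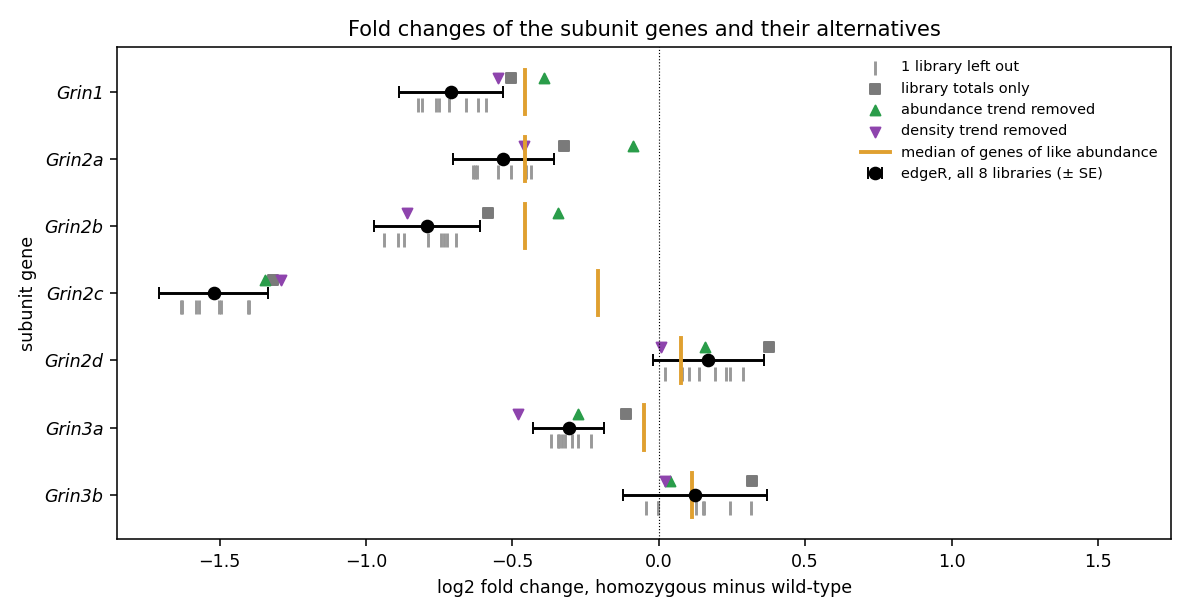
Log2 fold change (homozygous minus wild-type) of each subunit gene from edgeR (black points, with SE), beside fits with 1 library left out, other scaling or a trend removed (markers), and the median of genes of like abundance (orange bars). Grin2c lies between -1.63 and -1.29 in every fit shown, whereas Grin2a moves from -0.53 to -0.09 when the abundance trend is removed.

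The summed levels of 5 marker lists of neurons, astrocytes and oligodendrocytes were also lower in every homozygous library, and their counts are to be read beside 20.4% of genes lower over the table and 55.1% in the most abundant decile. The summed CPM of 7 pyramidal cell markers was 1456 to 1897 for wild-type and 778 to 981 for homozygous libraries, with 6 of 7 lower and 0 higher. The sum of 8 pan-neuronal markers was 2334 to 3076 against 1592 to 1999 CPM (6 lower, 1 higher), and that of 7 GABAergic interneuron markers 384.8 to 407.0 against 257.2 to 297.1 CPM (4 lower, 0 higher). The 10 astrocyte markers summed to 3499 to 4302 against 2401 to 2560 CPM (7 lower, 0 higher), and 7 oligodendrocyte markers to 1426 to 2274 against 964 to 1190 CPM (6 lower, 0 higher). None of these 5 sums overlapped between genotypes. Within homozygous mice the pan-neuronal sum was lowest in replicate 15 (1592 CPM), where Grin1 was highest, and highest in replicate 18 (1999 CPM), where Grin1 was lowest. The pyramidal sum was lowest in homozygous replicate 16 (778 CPM) and highest in replicate 18 (981 CPM). Within wild-type mice the pan-neuronal sum and Grin1 went together. Both were lowest in replicate 8 (sum 2334 CPM) and higher in replicates 7 and 9 (3061 and 3076 CPM) than in replicate 10 (2746 CPM). The part of these marker sums in the values of Grin1, Grin2a, Grin2b and Grin2c was not tested.

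Slc17a7, a vesicular glutamate transporter gene of pyramidal cells, was at 1049 CPM in wild-type and 555 CPM in homozygous mice, and no listed marker was at 0 counts. That held for the cerebellar granule and thalamus lists too, so it does not set hippocampus apart from other brain tissue. The 7 dentate granule markers summed to 332 to 355 against 290.1 to 331 CPM (2 lower, 0 higher), and these sums did not overlap between genotypes either. Microglial sums overlapped (249 to 335 against 248 to 312 CPM, 3 of 8 lower), as did endothelial sums (2 of 7 lower, 1 higher), thalamic sums (0 of 5 in either direction) and choroid plexus sums, which ran from 363 to 1289 against 137 to 877 CPM (2 of 8 lower). Oligodendrocyte precursor sums overlapped too, at 247 to 329 against 276 to 1682 CPM (2 of 6 lower, 2 higher). The highest sums were in homozygous replicates 16 (1682 CPM) and 15 (684 CPM). Cspg4, the most abundant gene of that list, was at 94.5 CPM in wild-type and 548 CPM in homozygous mice, and the next, Pdgfra, at 74.5 and 57.4 CPM. The 7 markers of cerebellar granule cells, the best-known site of Grin2c, summed to 271 to 315 CPM for wild-type and 395 to 418.5 CPM for homozygous libraries. Of these markers, 2 were higher and 0 lower. The most abundant of them, Fat2, was at 104 and 175 CPM, and the next, Zic1, at 51.4 and 51.1 CPM. A part of such cells in the Grin2c values was not tested.

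Levels were compared between genes only per kilobase of gene model, since the models differ in length. The exons of Grin2b cover 24842 bases, of which its longest coding sequence takes 4446, while those of Grin3b cover 3296 bases with 3009 coding. Per kilobase of coding sequence, wild-type levels were 51.8 ± 9.92 for Grin2b, 49.4 ± 8.89 for Grin1 and 46.9 ± 9.41 CPM for Grin2a (SD, n = 4), and these 3 overlapped. Grin2c followed at 30.3 ± 5.93 CPM per kilobase, with its highest library (37.8) below the lowest of Grin2a (38.6). Grin3a (11.1 ± 0.79), Grin2d (6.79 ± 1.09) and Grin3b (6.49 ± 1.55) were lower, and Grin2d and Grin3b overlapped.

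In homozygous libraries Grin2a (32.5 ± 5.44 CPM per kilobase of coding sequence), Grin1 (30.2 ± 6.10) and Grin2b (29.9 ± 6.15) again overlapped (SD, n = 4). Grin2c, at 10.6 ± 2.26 (7.58 to 12.9), overlapped with Grin3a, at 9.01 ± 0.86 (7.73 to 9.55), and was below all libraries of the 3 abundant subunit genes. Per kilobase of all exons the order was another one, with Grin2c highest in wild-type (22.4 ± 4.37) ahead of Grin1 (14.7 ± 2.64), Grin2a (11.5 ± 2.31) and Grin2b (9.27 ± 1.78), and Grin1 highest in homozygous libraries (8.95 ± 1.81). The order among the abundant subunit genes therefore depends on the length used, and which ends were sequenced is not recoverable from counts per gene.

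To place the low levels, 87 keratin and taste receptor genes, families not known for hippocampal expression, were read the same way (chosen after the data were seen). From the 10th to the 90th percentile they spanned 2.12 to 7.86 CPM per kilobase of coding sequence for wild-type and 2.72 to 10.2 for homozygous libraries. Mean levels of Grin2d and Grin3b were inside that range in both genotypes and with both lengths. Grin3a was above it in wild-type (11.1) and inside it in homozygous libraries (9.01) with coding length, and inside it with exon length (3.07 and 2.50). Homozygous Grin2b was also inside the range with exon length (5.35 against 2.22 to 7.65). The homozygous mean of Grin2c was just above the upper end, at 7.80 against 7.65 with exon length and 10.6 against 10.2 with coding length. Its lowest homozygous library (5.59 and 7.58) was inside. The medians of the 87 genes were 3.90 CPM per kilobase of coding sequence for wild-type and 4.70 for homozygous libraries, below the means of Grin2d and Grin3b, as were those per kilobase of exon (3.20 and 3.83).

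Among the 4 GluN2 genes, the make-up of the counts differed between genotypes. Per kilobase of exon, Grin2c made up 49.5, 44.4, 46.2 and 49.1% of the GluN2 sum in wild-type replicates 7 to 10 and 25.4, 37.3, 32.1 and 27.4% in homozygous replicates 15 to 18, with no overlap. Grin2a made up 24.3 ± 1.12% of the wild-type and 31.1 ± 1.42% of the homozygous sum, also with no overlap. Grin2b was at 19.6 ± 1.53% and 20.9 ± 2.26%, and the groups overlapped. Grin2d was at 8.83 ± 2.44% and 17.5 ± 3.11%, with no overlap (6.44 to 12% against 12.8 to 19.2%). With coding length the wild-type and homozygous shares were 22.3 and 13.2% for Grin2c, 34.4 and 40.4% for Grin2a, 38.1 and 37.1% for Grin2b, and 5.16 and 9.32% for Grin2d. A share within a library does not depend on library scaling, but the 4 shares add to a fixed sum, so a lower share of 1 gene raises the others.

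**Figure D3:**
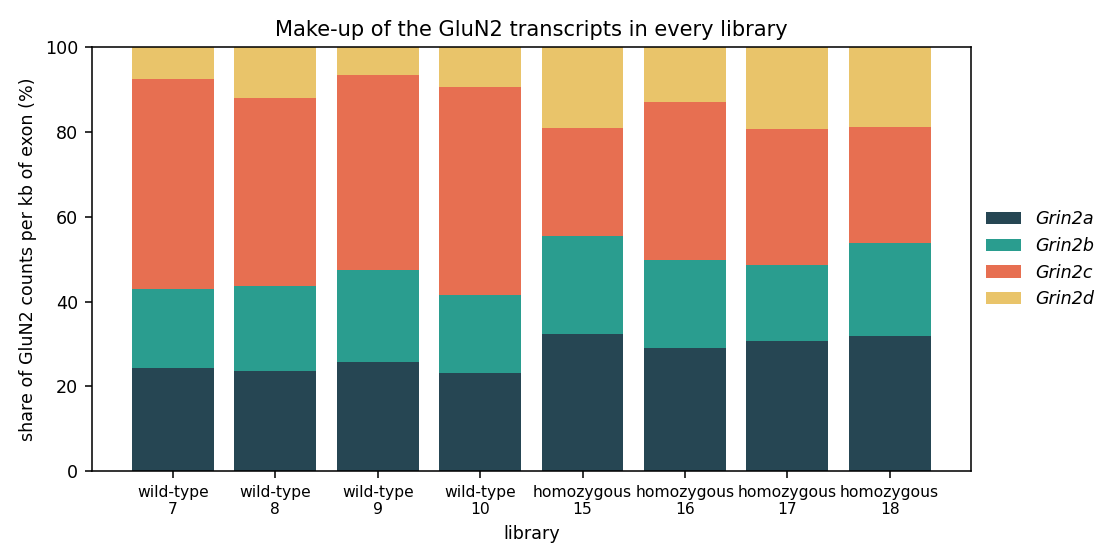
Share of Grin2a, Grin2b, Grin2c and Grin2d in the summed GluN2 counts per kilobase of exon (%, stacked bars) in each of the 8 libraries. The Grin2c share is 44.4 to 49.5% in the 4 wild-type libraries and 25.4 to 37.3% in the 4 homozygous libraries.

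Subunit ratios within a library were tested with an exact two-sided permutation test over the 70 splits of 4 against 4, whose smallest p is 0.0286, and adjusted over the 6 ratios. No ratio passed 0.05 after adjustment. A ratio at the smallest p can pass only when several others reach it too, so missing the threshold does not show the absence of a difference. The ratio of Grin2c to the sum of Grin2a and Grin2b per kilobase of exon was 1.15, 1.02, 0.974 and 1.18 in wild-type replicates 7 to 10. In homozygous replicates 15 to 18 it was 0.458, 0.749, 0.659 and 0.508. The groups did not overlap, and the log2 ratio differed by -0.89 (SE 0.18; exact permutation p 0.0286, adjusted 0.0857). Grin2c counts were thus lower relative to those of Grin2a and Grin2b in 4 of 4 homozygous libraries, at the smallest p this design allows.

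The ratio of Grin2a to Grin2b is known to rise as forebrain synapses mature. Per kilobase of exon it was 1.31, 1.18, 1.19 and 1.27 in wild-type replicates 7 to 10. In homozygous replicates 15 to 18 it was 1.40, 1.41, 1.73 and 1.46. The groups did not overlap, and the log2 ratio differed by 0.27 (SE 0.08; exact permutation p 0.0286, adjusted 0.0857). This difference between genotypes is the same for any length used, but the ratio itself is not. Per kilobase of coding sequence the wild-type mean of Grin2b (51.8 CPM) was above that of Grin2a (46.9 CPM). The log2 difference was 0.40 with the counts-per-kilobase trend removed, 0.26 with the abundance trend removed and 0.20 without homozygous replicate 17.

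The remaining 4 ratios overlapped between genotypes. The log2 ratio of Grin2d to the sum of Grin2a and Grin2b differed by 0.76 (SE 0.26; exact permutation p 0.0571, adjusted 0.0857), and by 0.32 with the abundance trend removed. The log2 ratio of the GluN2 sum to Grin1 differed by -0.16 (SE 0.06; exact permutation p 0.0571, adjusted 0.0857), and with coding length the difference was -0.04. The log2 ratio of the GluN3 sum to Grin1 differed by 0.69 (SE 0.36; exact permutation p 0.114, adjusted 0.137), by 0.45 without homozygous replicate 18 and by 0.34 with the abundance trend removed. That of Grin3b to Grin3a differed by 0.42 (SE 0.28; exact permutation p 0.229), and by 0.20 without wild-type replicate 9.

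**Figure D4:**
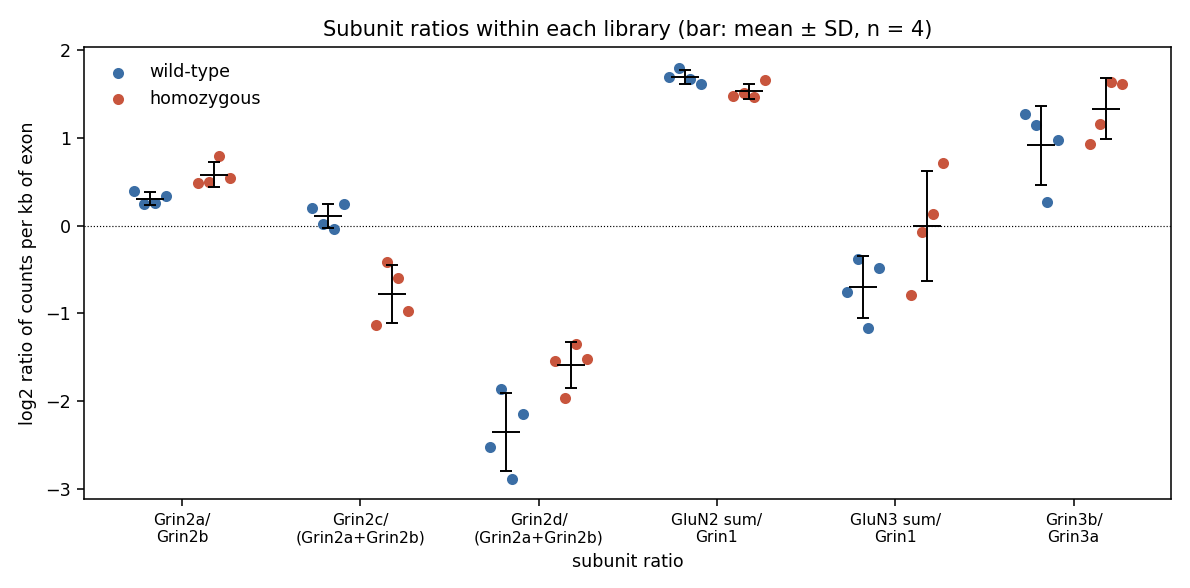
Log2 ratio of counts per kilobase of exon between subunit genes in each library (points), with mean and SD over 4 libraries (bars). Wild-type and homozygous points do not overlap for Grin2a/Grin2b and for Grin2c/(Grin2a+Grin2b), and they overlap for the other 4 ratios.

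Wild-type replicates 7 and 9 were the higher 2 of 4 for Grin1, Grin2a, Grin2b and Grin2c, and homozygous replicate 18 was the lowest of 4 for the same genes. Across the 8 libraries the Pearson r of log2 CPM was 0.964 for Grin1 and Grin2a, 0.956 for Grin2a and Grin2b and 0.930 for Grin1 and Grin2c. After the genotype means were taken out these values were 0.922, 0.915 and 0.833, against 0.793 for Grin1 and Grin2b, 0.673 for Grin2a and Grin2c and 0.525 for Grin2b and Grin2c. Among homozygous libraries Grin2c was highest in replicate 16, and Grin1, Grin2a and Grin2b in replicate 15. Grin3a did not follow Grin1 within genotypes (-0.20), nor did Grin2d (0.20). These are descriptions over 8 points that share library scaling and genotype.

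Among 18276 other genes with a mean of at least 5 CPM, the patterns most like that of Grin1 over the 8 libraries were those of Ncln (r 0.995), Camk2b (0.985) and Bsn (0.984). For Grin2c they were Zmynd11 (r 0.996), Nat14 (0.992) and Cfl1 (0.992). Their log2 fold changes were -0.57, -0.77 and -0.35 for the 3 genes like Grin1, and -0.63, -0.82 and -1.40 for the 3 like Grin2c, of which Cfl1 encodes the actin-severing protein cofilin.

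The pathway around the receptor was read from 6 lists, each set beside 20.4% lower and 20.7% higher over all genes, and pairs of CPM values give wild-type before homozygous. Among genes that handle the co-agonists, 2 of 16 were lower (Srr and Shmt1), 1 was higher (Dao) and 13 passed in neither direction, with a median log2 fold change of -0.16. Srr encodes serine racemase, which makes D-serine, and was at 52.7 ± 6.06 CPM in wild-type and 29.5 ± 1.73 CPM in homozygous mice (log2 fold change -0.83, SE 0.12, edgeR adjusted p 0.000538). It was also lower with the abundance trend (-0.77) or the trend on counts per kilobase (-0.80) removed. Dao, encoding the oxidase that degrades D-serine, was at 6.57 and 9.81 CPM (log2 fold change 0.62, edgeR adjusted p 0.0427), and missed the threshold with either trend removed (adjusted p 0.153 and 0.138). The glycine transporter gene Slc6a9 (-0.20, adjusted p 0.338) and the D-serine and neutral amino acid transporter gene Slc7a10 (0.19, adjusted p 0.507) did not pass.

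Of the scaffolds that anchor the receptor at the synapse, 4 of 13 were lower (Dlg2, Dlg3, Dlg4 and Dlgap4), 0 were higher, and the median log2 fold change was -0.28. Dlg4, encoding PSD-95, which binds the tails of GluN2 subunits, was at 632 ± 84.9 and 322 ± 31.4 CPM (log2 fold change -0.97, SE 0.15, edgeR adjusted p 0.000733). With the abundance trend removed its adjusted p was 0.0940, and no scaffold was called lower. Dlg3, which encodes SAP102, had a log2 fold change of -0.36 (edgeR adjusted p 0.0308) and stood at -0.01 with that trend removed and at -0.15 (adjusted p 0.330) with library totals. Shank1 did not pass (-0.27, adjusted p 0.304).

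Kinases and phosphatases that act on the receptor had the lowest median of the 6 lists, at -0.63, with 18 of 23 lower and 0 higher. Camk2a, the alpha subunit of CaMKII, had a log2 fold change of -0.60 (SE 0.17, edgeR adjusted p 0.0147), which turned to 0.21 (adjusted p 0.243) with the abundance trend removed and missed the threshold with library totals (adjusted p 0.0818). Camk2b had a log2 fold change of -0.77 (edgeR adjusted p 0.0122) and stood at -0.10 with the abundance trend removed. In that fit 9 of 23 genes of the list were lower. Dapk1, encoding death-associated protein kinase, was at 242 ± 15.7 and 109.8 ± 13.3 CPM (log2 fold change -1.14, edgeR adjusted p 0.000127) and stayed past the threshold with either trend removed, at -0.72 and -0.78. Fyn, a tyrosine kinase that phosphorylates GluN2 subunits, was at -0.54 (edgeR adjusted p 0.0051) and kept its call with either trend removed. Ptpn5, encoding the opposing phosphatase STEP, did not pass (-0.27, adjusted p 0.320).

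Among trafficking and auxiliary partners, 6 of 15 were lower and 2 were higher (Apba1 and Gipc1), with a median of -0.34. Ap2m1, the clathrin adaptor subunit that binds endocytic signals, was at 366 and 167 CPM (log2 fold change -1.13, SE 0.14, edgeR adjusted p 0.000225), and remained lower with the abundance trend removed (-0.60). Gipc1, encoding a PDZ protein that binds GluN2 subunits, was at 34.9 and 54.1 CPM (log2 fold change 0.63, SE 0.16, edgeR adjusted p 0.0104), and was higher with either trend removed (0.71 and 1.10). Kif17, the motor that carries GluN2B vesicles (0.04), Neto1, an auxiliary subunit (-0.34, adjusted p 0.0599), and Ephb2, a receptor tyrosine kinase that binds NMDA receptors (0.00), did not pass.

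Downstream of the receptor, 6 of 15 genes were lower and 2 were higher (Creb1 and Rph3a), with a median of -0.19. Calm3, a calmodulin gene, was at 1122 ± 103 and 519 ± 37 CPM (log2 fold change -1.11, edgeR adjusted p 0.000296), and missed the threshold with the abundance trend removed (-0.33, adjusted p 0.0567). Nelf, the older symbol of Nsmf, encodes Jacob, a protein that carries NMDA receptor signals to the nucleus, and was at 311 and 166 CPM (log2 fold change -0.91, edgeR adjusted p 0.000814). It was at -0.39 (adjusted p 0.0320) with the abundance trend removed and at -0.24 (0.188) with the counts-per-kilobase trend removed. Rph3a, encoding rabphilin, which retains GluN2A at synapses, was higher, at 99.4 and 153 CPM in wild-type and homozygous mice (log2 fold change 0.62, SE 0.14, edgeR adjusted p 0.00509), and was at 0.96 and 1.12 with the trends removed. Nos1, the neuronal nitric oxide synthase, did not pass (-0.05, adjusted p 0.863).

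The other ionotropic glutamate receptor genes, for AMPA, kainate and delta receptors, were 5 of 11 lower, among them Gria1, Gria2, Gria3 and Grik1, and 1 higher (Grid1), with a median of -0.31. Gria1, for the AMPA receptor subunit GluA1, was at 419 ± 103 and 222 ± 63.8 CPM (log2 fold change -0.92, SE 0.23, edgeR adjusted p 0.00975). Gria2, for the GluA2 subunit that limits calcium entry, had a log2 fold change of -0.56 (edgeR adjusted p 0.0181). With the abundance trend removed, Gria1 missed the threshold (-0.32, adjusted p 0.268) and Gria2 turned to 0.21 (adjusted p 0.283), and Gria2 also missed it with library totals (adjusted p 0.0955). Grid1, for a delta receptor subunit, was at 49.5 and 70.3 CPM (log2 fold change 0.51, SE 0.18, edgeR adjusted p 0.0444), and kept its direction and call with either trend removed (0.65 and 0.59). The kainate receptor gene Grik2 did not pass (-0.13, adjusted p 0.383). The difference between NMDA receptor genes and these other receptor genes was not tested.

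**Figure D5:**
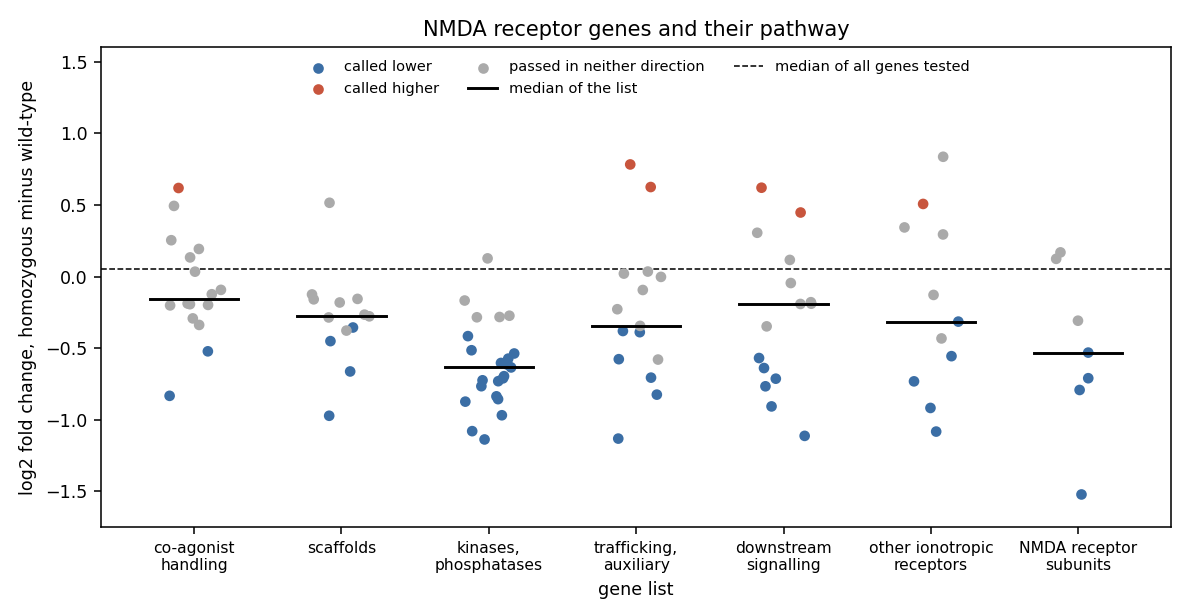
Log2 fold change (homozygous minus wild-type) of each gene of the 6 pathway lists and of the 7 subunit genes (points, coloured by call), with the median of each list (black lines) and of all genes tested (dashed line at 0.05). List medians run from -0.63 (kinases and phosphatases) to -0.16 (co-agonist handling), and the subunit genes are at -0.53.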

How the data were processed

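Total RNA from the hippocampus of 8 mice had ribosomal RNA removed and was sequenced as read pairs of 50 and 35 bases (SOLiD 4), per the labels' protocols. For all libraries the authors deposited a single table of raw counts by gene symbol, and the submitters' processing notes name build mm10. Aligner, counter, strand setting and annotation were not given in the sources used here. All 24078 entries were used, and 0 count columns belonged to no listed sample.

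Genes were filtered with filterByExpr of edgeR 4.0.16 (R 4.3.3), which left 20478. Homozygous was compared with wild-type by the quasi-likelihood test on TMM-scaled counts, with no covariate and Benjamini-Hochberg adjustment over all genes tested, at a threshold of 0.05. The SE of a fold change was derived from the test statistic. The 95% intervals are a normal approximation from that SE and are somewhat narrower than the quasi-likelihood test implies. CPM is on the TMM scale, and log2 CPM for correlations used a prior count of 2. Ratios were made from counts per kilobase of GENCODE M21 exons (97.8% of entries matched by current or older symbol). The 7 genes, the pathway and marker lists and the rule for named genes (all members, fixed symbols, and the list member of smallest p called in each direction) were chosen with earlier results of these data known. Outside that rule, Shmt1, Dlg2, Dlgap4, Apba1, Creb1, Gria3 and Grik1 were named after their values were seen, and some items of these lists and sequences are not reported here.

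Alternatives were DESeq2 size factors, library totals, no filter, at least 1 CPM in 4 libraries, DESeq2 1.42.0, limma-voom (limma 3.58.1) with quality weights, removal of a loess trend (span 0.3) on abundance or on counts per kilobase, each library left out, and for ratios other lengths or 0.5 added to each count. Coding length was added after the data were seen. The fitting script was also tested on simulated data. Permutation tests went through every split of the libraries, and their p-values were adjusted with SciPy 1.17.1 (Benjamini-Hochberg). Promoter windows came from RefSeq (GRCm38.p6), with an entry for 4 of 7 genes.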

Additional observations from a re-analysis of the deposited data

Results flagged for a closer look

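Homozygous replicate 15 stood apart from the other homozygous libraries for Grin3a, at 26.3 CPM against 31.5 to 32.5 CPM in replicates 16, 17 and 18. Of 26 groups of 4 libraries looked at (7 genes and 6 ratios in each genotype), 1 had such a library, and chance alone sets about 1 in 20 groups apart. Without this library the log2 fold change of Grin3a was -0.23 (edgeR adjusted p 0.175).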

How the results depend on the processing

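With the abundance trend removed, 1 of the 7 subunit genes was lower in place of 4. Library totals in place of TMM gave 2412 genes lower and 6645 higher over the whole table, and 3 subunit genes lower. Lists under library totals had 1 co-agonist gene, 2 scaffolds, 3 trafficking genes and 3 other receptor genes lower, and 4 other receptor genes higher. With the abundance trend removed, 0 co-agonist genes were higher, 0 scaffolds were lower and 2 higher, 9 kinases or phosphatases, 2 trafficking genes and 1 downstream gene were lower, 4 downstream genes were higher, and 2 other receptor genes were lower and 3 higher. With the counts-per-kilobase trend removed, 0 co-agonist genes were higher, 1 scaffold was higher, 8 kinases or phosphatases, 1 trafficking gene and 1 downstream gene were lower, 4 downstream genes were higher, and 2 other receptor genes were lower and 2 higher. The cause was not tested.

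Grin2c was past the threshold in 16 of 16 alternatives, Grin1 and Grin2b in 15, Grin2a in 9, Grin3a in 3, and Grin2d and Grin3b in 0. Leaving out 1 library at a time, the count of subunit genes lower ran from 3 to 5, and the log2 fold change of Grin3b from -0.044 (without wild-type replicate 9) to 0.31. Adjusted p of Grin2c ran from 9.2e-12 to 0.00114 over its alternatives. The 6 ratios kept their direction under every alternative run. None passed the threshold after adjustment, which a single ratio cannot do with so few libraries, and the lowest adjusted p was 0.0571 (exact permutation test). No paired analysis was possible because the replicate numbers of the genotypes differ. Depth limits Grin3b most, at 60 to 112 counts per library, and p-values cover the spread between 4 animals per genotype.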
